A study of Homo sapiens with 6 samples.

Results

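The genes described here are 36 human genes that encode enzymes of nucleotide synthesis and of folate one-carbon metabolism. They were taken by name, from a list of the pathway's enzymes, and no cut on their measured values was used. The choice was made with earlier results of these data known. All 36 were present among the 18118 genes of the count table, and all 36 were among the 14571 genes with enough reads to be tested. RNA-seq was performed on the human cell line SU-CCS-1, which was derived from a clear cell sarcoma and in which the fusion oncogene EWSR1::ATF1 (EA1) is present. The 6 libraries formed 3 groups of 2. Control cells received siNeg1, which the labels list as a scramble control knockdown. The other groups received siEA1-1 or siEA1-2, small interfering RNAs directed at EA1. RNA was collected 48 h after transfection of 5 pmol of siRNA, as the study's methods state, and no other treatment or allele separates the groups. The methods name 1 siRNA against EA1 and the labels list 2, so the time and amount are stated for only 1 of the EA1 siRNAs. All libraries come from this 1 cell line, and no label says whether the replicates were separate cultures, so the p-values measure the spread between these libraries, which may be technical.

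Cells build the bases of RNA and DNA from small precursors. Purines are assembled on phosphoribosyl pyrophosphate (PRPP), step by step, up to inosine monophosphate (IMP), from which AMP and GMP are made. Pyrimidines are built as a ring that is then joined to PRPP. Folate-bound single-carbon units, drawn mainly from serine, supply carbons of the purine ring and the methyl group that thymidylate synthase adds to dUMP. Ribonucleotide reductase converts ribonucleotides into the deoxyribonucleotides (dNTPs) of DNA, and expression of several of these enzymes is known to rise in S phase. Antimetabolite drugs such as fluorouracil act on this network.

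Total counts per library ranged from 5942808 to 7599305, so that 3 counts corresponded to between 0.395 and 0.505 CPM, the count scaled to the size of the library. Levels below are CPM after TMM scaling (normalised CPM), log2 fold changes are coded as knockdown minus control, and a gene was called at an edgeR quasi-likelihood adjusted p under 0.05 over all genes tested. ATF1, whose 3' part is retained in the fusion, was at 82.2 and 87.4 CPM in the control libraries, 21.2 and 20.3 with siEA1-1 and 21.7 and 22.3 with siEA1-2, while EWSR1 was not called in either comparison (log2 fold change -0.11 and -0.04). Counts per gene do not separate the fusion from native ATF1. Of 8 melanocytic and neural crest markers, SOX10 was at 786 to 979 CPM in every library and was not called. The other 7 were called higher with both siRNAs, where 19.9% (siEA1-1) and 18.5% (siEA1-2) of all genes tested rose. The summed level of the 8 went from 2750 and 3010 CPM in control to 8010 and 8110 with siEA1-1 and to 7393 and 11989 with siEA1-2. The calls of MLANA, at 0.599 and 0 CPM in control, were lost with siEA1-1 without siNeg1 replicate 2 (log2 fold change 1.71, adjusted p = 0.174) or siEA1-1 replicate 1 (0.130) or 2 (0.0763), and with siEA1-2 without siNeg1 replicate 2 (0.0698) or siEA1-2 replicate 1 (0.0574). Of 14 markers of other lineages, 12 were not in the table, VWF was too low to test and COL1A1 lay between 1.65 and 4.63 CPM. The part that the melanocytic change plays in the values below was not tested.

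Most of the 36 genes were lower after EA1 knockdown. With siEA1-1, 29 of 36 fell, 3 rose (TK2, SAMHD1 and ALDH1L2) and 4 were not called. Over all genes tested, 20.3% fell and 19.9% rose in that comparison. With siEA1-2, 25 of 36 fell, 1 rose (SAMHD1) and 10 were not called, against 18.2% falling and 18.5% rising over all genes tested. The same shares stand beside the counts for each role group given below. The median log2 fold change of the 36 genes was -0.69 with siEA1-1 and -0.64 with siEA1-2, whereas the medians over all genes tested were 0.024 and 0.00014. In 29 of the 36 genes all 4 knockdown libraries lay below both control libraries, an arrangement held by 27.3% of all genes tested, and in 3 genes all 4 lay above, as did 28.1% of all genes. The 2 comparisons share their control libraries, so their values are given side by side and do not count as separate evidence.

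**Figure D1:**
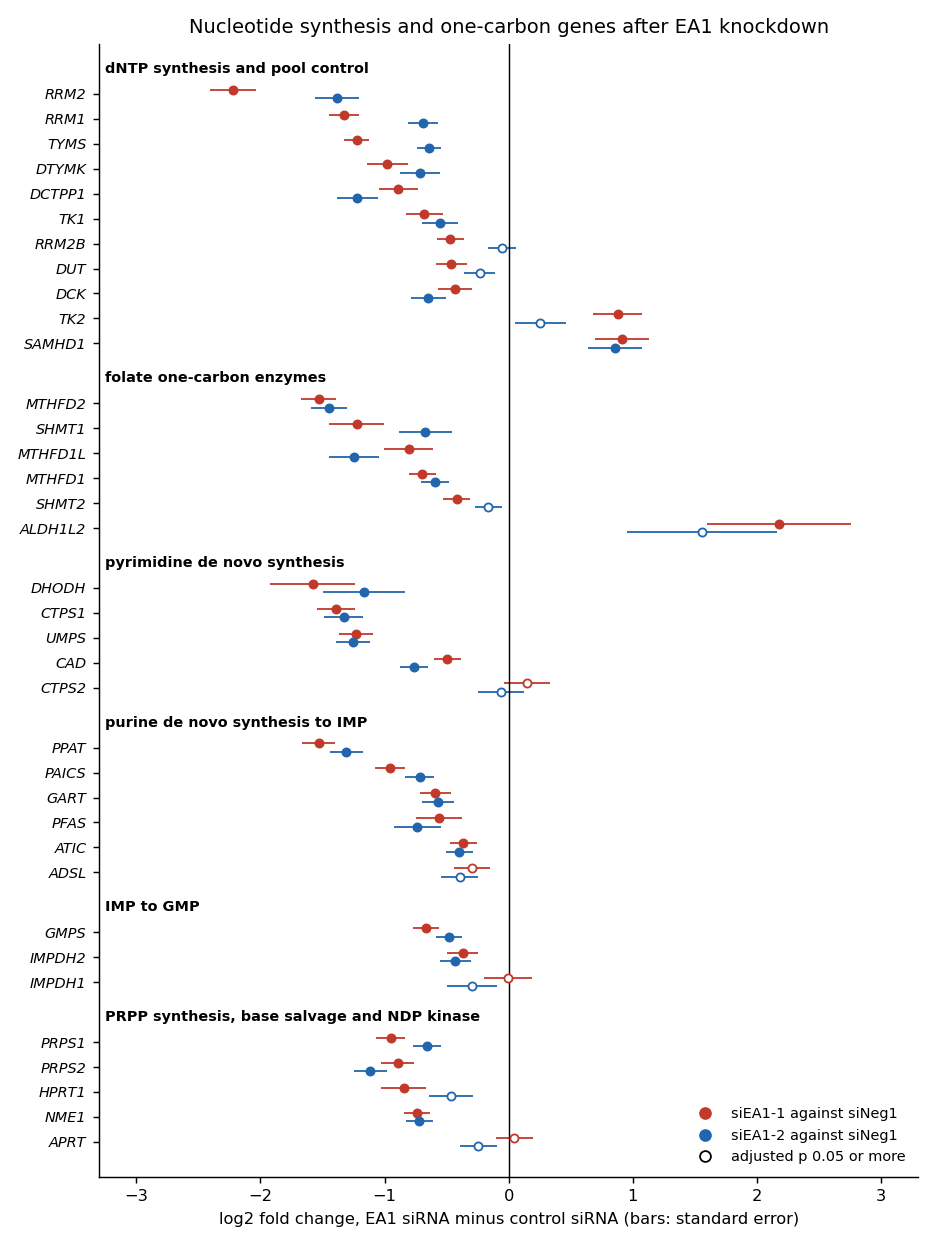
Log2 fold change (x axis, EA1 siRNA minus control siRNA) of each of the 36 genes (y axis, grouped by role) with siEA1-1 (red) and siEA1-2 (blue), with bars for the standard error and open circles for genes that were not called. Points lie to the left of 0 for 31 genes with siEA1-1 and for 33 with siEA1-2, and RRM2 with siEA1-1 lies farthest to the left at -2.22.

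Genes of the cell cycle moved in the same direction. Of 16 cell cycle and S phase genes, 14 fell with siEA1-1 and 13 with siEA1-2, where 20.3% and 18.2% of all genes tested fell. These 16 were chosen with earlier results of these data known. Their median log2 fold changes were -1.40 and -0.94. Their summed level went from 2156 and 2192 CPM in control to 836 and 918 with siEA1-1 and to 1072 and 1340 with siEA1-2. The proliferation marker MKI67 was at 583 and 593 CPM in control, 302 and 273 with siEA1-1, and 367 and 469 with siEA1-2. The genes that fell included PCNA, MCM2 and CDC6, which act in DNA replication, and also CDKN1A, which encodes an inhibitor of cyclin-dependent kinases. With siEA1-1 the call of E2F8 was lost without siNeg1 replicate 1 (adjusted p = 0.0673) or 2 (0.0549) or siEA1-1 replicate 1 (0.0594) or 2 (0.118). With siEA1-2 the call of CCNB1 was lost without siNeg1 replicate 1 (log2 fold change -0.34, adjusted p = 0.126), and that of CCNA2 without siNeg1 replicate 2 (-0.46, 0.0764) or siEA1-2 replicate 1 (-0.31, 0.0753). In RNA pooled from many cells, fewer cycling cells and less of a transcript per cell cannot be told apart. The summed level of the 36 enzyme genes was 3174 and 3280 CPM in control, 1753 and 1903 with siEA1-1 and 1853 and 2131 with siEA1-2.

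**Figure D2:**
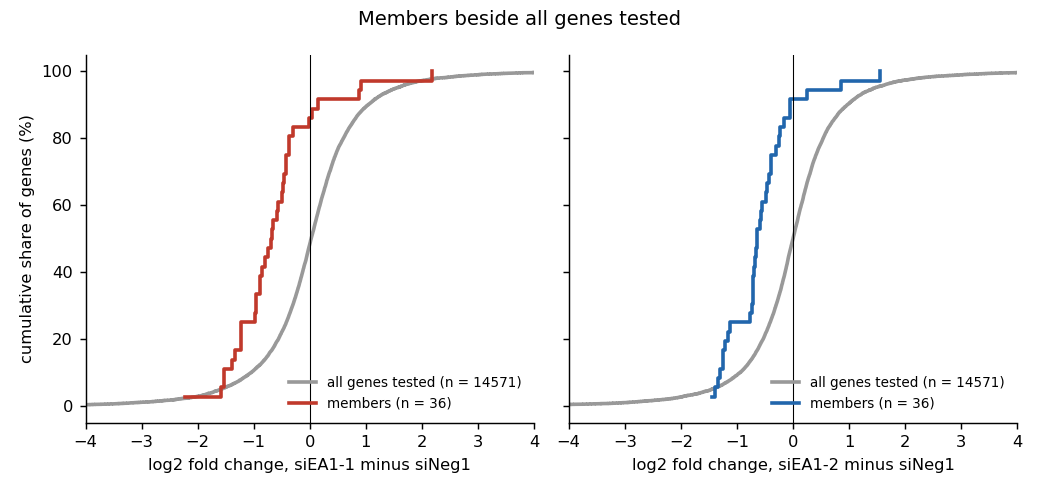
Cumulative share of genes (y axis, percent) at or below each log2 fold change (x axis) for the 36 enzyme genes (coloured steps) and all 14571 genes tested (grey), with siEA1-1 on the left and siEA1-2 on the right. The coloured steps cross 50% near their medians of -0.69 and -0.64, and the grey curves cross it near 0.

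The start sites of these genes were read for short motifs, since the DNA-binding part of ATF1 is known to recognise the cyclic AMP response element (CRE) and because E2F factors are known to act on S phase genes. RefSeq promoter windows of 300 bases (250 before to 50 after the start, GRCh38.p14) were at hand for 31 of the 36 genes, and both strands were searched. TYMS is shown as 1 of the 5 genes with an E2F motif, and UMPS because it alone held a full CRE. Each line runs 5′ to 3′ from 150 to 21 bases before the start, and capitals mark the motif. TYMS lies on the plus strand at chr18:657503-657632, with GCGGGAAA, the reverse complement of TTTCCCGC, beginning 39 bases before the start. UMPS lies on the plus strand at chr3:124730302-124730431, with TGACGTCA beginning 47 bases before the RefSeq start of that window.
TYMS: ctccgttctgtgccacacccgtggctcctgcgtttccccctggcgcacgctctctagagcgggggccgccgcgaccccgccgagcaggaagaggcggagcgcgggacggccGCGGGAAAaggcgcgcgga
UMPS: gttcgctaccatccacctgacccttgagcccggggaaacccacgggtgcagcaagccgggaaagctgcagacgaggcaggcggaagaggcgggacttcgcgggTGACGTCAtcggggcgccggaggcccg

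The full CRE (TGACGTCA) was in the window of 1 of the 31 genes, UMPS, and in 1.85% of all 35116 windows and 3.94% of the 10319 tested genes with a window. The pentamer TGACG, which opens the CRE on each strand and so overlaps every full CRE, was in 7 of 31 (CTPS1, CTPS2, DHODH, DTYMK, GART, PFAS and UMPS) and in 40.7% of tested genes. The E2F motif, searched as TTTCCCGC or TTTGGCGC, was in 5 (DCK, DUT, GART, PRPS2 and TYMS), or 16.1%, against 4.70% of tested genes and 2.27% of all windows. The E box CACGTG was in 9 genes, or 29.0%, against 12.7% of tested genes. CCAAT was in 14 genes, or 45.2%, against 43.9%. The AP-1 motif TGANTCA was in 3 genes, against 6.74% of tested genes, and TGATGNAAT, the composite site of ATF4, was in MTHFD1L only, against 0.804%. These matches describe the letters of the windows, and binding was not measured in these libraries.

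Ribonucleotide reductase and thymidylate synthase were among the enzymes that fell. RRM2 (ENSG00000171848, hg38 chr2:10120698-10211725), the small subunit of ribonucleotide reductase that cells make in S phase, was at 172 and 201 CPM in the control libraries, 38.3 and 42.0 with siEA1-1, and 54.1 and 88.0 with siEA1-2. All 4 knockdown libraries lay below both controls, and both siEA1-1 libraries lay below both siEA1-2 libraries. RRM2 fell 4.66-fold with siEA1-1 (log2 fold change -2.22 ± 0.19 SE, adjusted p = 4.71e-06) and 2.61-fold with siEA1-2 (-1.39 ± 0.18, adjusted p = 0.000118). RRM1, the large catalytic subunit, was at 133 and 145 CPM in control, 57.5 and 53.0 with siEA1-1, and 77.4 and 94.5 with siEA1-2, falls of 2.51-fold and 1.61-fold (adjusted p = 8.02e-06 and 0.00083). RRM2B, the p53-inducible small subunit, was at 81.4 and 71.9, 55.7 and 54.8, and 71.7 and 75.5 CPM in the same order. It fell 1.38-fold with siEA1-1 (adjusted p = 0.00572). With siEA1-2 its libraries overlapped the control libraries (log2 fold change -0.06 ± 0.11, adjusted p = 0.733).

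TYMS (ENSG00000176890, hg38 chr18:657653-673578), which makes dTMP from dUMP and whose upstream bases are printed above, stood at 213 and 215 CPM in control, 92.3 and 90.7 with siEA1-1, and 131 and 143 with siEA1-2. It fell 2.34-fold and 1.56-fold (log2 fold change -1.22 ± 0.10 and -0.64 ± 0.10, adjusted p = 3.46e-06 and 0.00036). Of its exon bases, 39.9% are shared with ENOSF1 on the other strand, and the strand setting of the counting is not given in the sources used here. ENOSF1 itself changed by -0.48 on the log2 scale with siEA1-1 (adjusted p = 0.0151) and by -0.33 with siEA1-2 (adjusted p = 0.0788). The thymidine salvage kinases of cytosol and mitochondria went different ways with siEA1-1. The cytosolic enzyme TK1 went from 44.9 and 46.9 CPM to 25.5 and 31.9 with siEA1-1 and to 31.3 and 31.2 with siEA1-2, falls of 1.6-fold and 1.47-fold (adjusted p = 0.00332 and 0.0117). TK2, the mitochondrial kinase, was at 10.5 and 10.4 CPM in control and rose to 18.5 and 19.9 with siEA1-1 (log2 fold change 0.88 ± 0.20, adjusted p = 0.00412). With siEA1-2 it was at 13.4 and 11.7 CPM (0.25 ± 0.20, adjusted p = 0.366).

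DTYMK, which phosphorylates dTMP, went from 36.4 CPM in both control libraries to 17.5 and 19.4 with siEA1-1 and to 19.9 and 24.1 with siEA1-2, falls of 1.97-fold and 1.64-fold (adjusted p = 0.000608 and 0.00478). DCTPP1, a pyrophosphatase that removes dCTP and its modified forms, had the same 36.4 CPM in both control libraries, 19.8 and 19.4 with siEA1-1, and 14.4 and 16.7 with siEA1-2, falls of 1.85-fold and 2.33-fold (adjusted p = 0.000892 and 0.000145). The deposited counts of DTYMK and DCTPP1 coincide in 3 libraries, at 243 and 283 in the controls and 118 in siEA1-1 replicate 2, and differ in the other 3. Of the exon bases of DCTPP1, 41.2% are shared with ZNF771 on the other strand, which was not called in either comparison. DCK, the kinase that salvages deoxycytidine, was at 44.6 and 54.4 CPM in control, 36.3 and 37.2 with siEA1-1, and 31.3 and 31.9 with siEA1-2, and was called lower with both (adjusted p = 0.0273 and 0.00374). DUT, which hydrolyses dUTP, was at 79.6 and 65.3 CPM in control, 54.5 and 50.4 with siEA1-1, and 60.5 and 62.3 with siEA1-2. It was called lower with siEA1-1 (log2 fold change -0.46, adjusted p = 0.0114) and not with siEA1-2 (-0.24, adjusted p = 0.163). SAMHD1, which hydrolyses dNTPs, was the gene of this group that rose with both siRNAs. Its level was 10.3 and 11.7 CPM in control, 17.2 and 24.5 with siEA1-1 and 20.3 and 19.7 with siEA1-2, with no overlap between control and knockdown (log2 fold change 0.91 ± 0.21 and 0.85 ± 0.22, adjusted p = 0.00534 and 0.00902).

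Of these 11 dNTP genes, 9 fell and 2 rose with siEA1-1, and 7 fell, 1 rose and 3 were not called with siEA1-2. Several calls were lost when a library was left out, which leaves 1 library in its group. Without siNeg1 replicate 1, the siEA1-1 calls of RRM2B (adjusted p = 0.0683) and DUT (0.135) and the siEA1-2 call of SAMHD1 (log2 fold change 0.77, adjusted p = 0.0579) were lost. Leaving out siNeg1 replicate 2 ended the siEA1-2 call of TK1 (-0.56, adjusted p = 0.0540). Leaving out siEA1-1 replicate 1 ended the siEA1-1 call of TK1 (-0.52, adjusted p = 0.0527), and leaving out siEA1-1 replicate 2 ended those of DUT (0.0813) and SAMHD1 (0.62, adjusted p = 0.0859). The siEA1-1 call of DCK was lost under DESeq2 (adjusted p = 0.0790) and without siNeg1 replicate 2 (log2 fold change -0.31, adjusted p = 0.201), siEA1-1 replicate 1 (-0.41, 0.136) or siEA1-1 replicate 2 (-0.47, 0.0903).

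**Figure D3:**
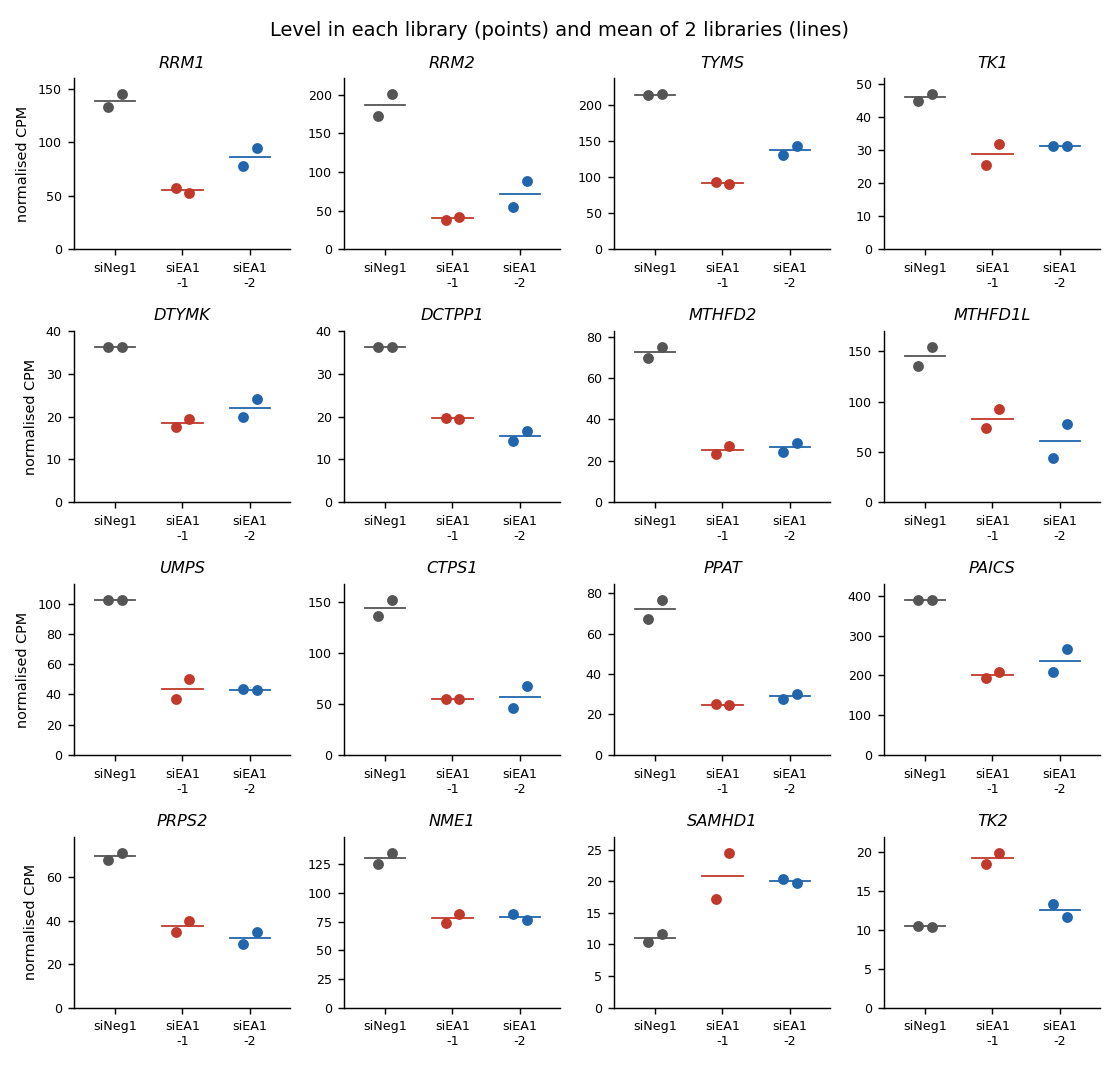
Normalised CPM (y axes, from 0) of 16 of the genes in each library (points) with the mean of the 2 libraries of a group (lines), for siNeg1 (grey), siEA1-1 (red) and siEA1-2 (blue). The knockdown points lie below both control points in every panel except SAMHD1 and TK2, where they lie above.

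With siEA1-1 the folate enzymes of mitochondrion and cytosol fell, apart from ALDH1L2, and with siEA1-2 SHMT2 and ALDH1L2 were not called. MTHFD2 (ENSG00000065911, hg38 chr2:74186172-74217565), the mitochondrial dehydrogenase and cyclohydrolase of the folate cycle, was at 69.7 and 75.1 CPM in control, 23.0 and 27.2 with siEA1-1, and 24.2 and 28.6 with siEA1-2. Control did not overlap with either knockdown group, while the knockdown groups overlapped each other, and the falls were 2.89-fold and 2.73-fold (log2 fold change -1.53 ± 0.14 and -1.45 ± 0.14, adjusted p = 9.1e-06 and 1.68e-05). Of its exon bases, 11.6% are shared with SLC4A5 on the other strand, which rose (log2 fold change 2.14 and 2.11). MTHFD1L, which releases formate in the mitochondrion, was at 136 and 155 CPM in control, 74.1 and 92.2 with siEA1-1, and 44.3 and 77.2 with siEA1-2. Its siEA1-2 libraries lay far apart, and its falls were 1.75-fold and 2.37-fold (adjusted p = 0.00685 and 0.000584). MTHFD1, the cytosolic enzyme that takes formate back into folate, was at 178 and 199, 108 and 125, and 119 and 131 CPM in the same order, falls of 1.62-fold and 1.51-fold (adjusted p = 0.000447 and 0.00149).

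SHMT1 and SHMT2 transfer a carbon from serine to folate in the cytosol and in the mitochondrion. SHMT1 was at 23.1 and 21.3 CPM in control, 10.8 and 8.07 with siEA1-1, and 11.9 and 15.7 with siEA1-2, falls of 2.34-fold and 1.59-fold (adjusted p = 0.00103 and 0.0285). SHMT2 was at 86.5 and 93.3 CPM in control and fell 1.34-fold to 65.7 and 68.8 with siEA1-1 (adjusted p = 0.00948), and it was at 84.9 and 75.7 with siEA1-2 (log2 fold change -0.17 ± 0.11, adjusted p = 0.26). ALDH1L2, which oxidises 10-formyltetrahydrofolate in the mitochondrion, was hardly expressed in control cells, with 10 and 3 counts, or 1.50 and 0.386 CPM. It had 30 and 25 counts with siEA1-1 (4.27 and 4.12 CPM) and 13 and 22 with siEA1-2 (2.31 and 3.09 CPM), and it was called higher with siEA1-1 (adjusted p = 0.0108) and not with siEA1-2 (adjusted p = 0.0644).

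Of these 6 folate genes, 5 fell and 1 rose with siEA1-1, and 4 fell and 2 were not called with siEA1-2. The siEA1-2 call of SHMT1 was lost under DESeq2 (adjusted p = 0.0870) and without siNeg1 replicate 1 (log2 fold change -0.62, adjusted p = 0.126), siNeg1 replicate 2 (-0.76, 0.0641) or siEA1-2 replicate 1 (-0.52, 0.127). Without siEA1-1 replicate 1, the siEA1-1 calls of MTHFD1L (-0.65, adjusted p = 0.0783), SHMT2 (-0.38, 0.0819) and ALDH1L2 (0.0613) were lost. SHMT2 (-0.39, 0.0603) and ALDH1L2 (1.44, 0.0930) were also lost without siNeg1 replicate 2, and ALDH1L2 without siEA1-1 replicate 2 (0.0537). With siEA1-2, ALDH1L2 was called only when siNeg1 replicate 1 was left out (2.76, adjusted p = 0.0240).

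The enzymes of pyrimidine synthesis had the largest median fall of the 6 role groups, with median log2 fold changes of -1.23 and -1.17 over 5 genes. UMPS (ENSG00000114491, hg38 chr3:124730433-124749273), which makes UMP and whose upstream bases with the CRE are printed above, was at 102 and 103 CPM in control, 37.1 and 50.2 with siEA1-1, and 43.3 and 42.7 with siEA1-2. It fell 2.35-fold and 2.38-fold (log2 fold change -1.23 ± 0.14 and -1.25 ± 0.14, adjusted p = 3.15e-05 and 3.67e-05). The RefSeq start used for the printed UMPS line lies downstream of the first base of the gene coordinates given here. CTPS1 (ENSG00000171793, hg38 chr1:40979300-41012565), which makes CTP from UTP, was at 136 and 152 CPM in control, 54.9 and 55.0 with siEA1-1, and 45.9 and 68.1 with siEA1-2, falls of 2.63-fold and 2.51-fold (adjusted p = 3.17e-05 and 5.44e-05). Its paralog CTPS2 was at 20.5 and 24.9, 22.0 and 28.7, and 22.8 and 20.9 CPM and was not called in either comparison (log2 fold change 0.15 ± 0.19 and -0.06 ± 0.19). For CTPS1 both control libraries lay above all knockdown libraries, and for CTPS2 control and knockdown overlapped.

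DHODH, the mitochondrial enzyme that oxidises dihydroorotate to orotate, was at 9.88 and 10.4 CPM in control, 2.56 and 4.28 with siEA1-1, and 3.74 and 5.19 with siEA1-2, falls of 2.99-fold and 2.25-fold (adjusted p = 0.00325 and 0.0163). It was the least abundant of the 5 and rested on between 18 and 81 counts per library. CAD, the enzyme that carries the opening reactions of the pathway on 1 polypeptide, was at 107 and 101 CPM in control, 72.8 and 74.9 with siEA1-1, and 56.3 and 66.1 with siEA1-2, falls of 1.41-fold and 1.70-fold (adjusted p = 0.00402 and 0.000294). With each siRNA, 4 of the 5 genes fell and CTPS2 was not called. The siEA1-2 call of DHODH was lost without siNeg1 replicate 1 (log2 fold change -1.20, adjusted p = 0.0531), siNeg1 replicate 2 (-1.16, 0.0683) or siEA1-2 replicate 1 (-0.98, 0.0668).

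Of the 6 purine genes up to IMP, 5 fell with each siRNA and ADSL was not called. PPAT and PAICS are neighbours, and their starts lie 126 bases apart and point away from each other on chromosome 4. PPAT (ENSG00000128059, hg38 chr4:56393362-56435615), which commits PRPP to purine synthesis, was at 67.1 and 76.8 CPM in control, 25.0 and 24.7 with siEA1-1, and 27.6 and 30.3 with siEA1-2. PAICS (ENSG00000128050, hg38 chr4:56435741-56464578), which carries out later steps of the ring, was at 390.2 and 389.4 CPM in control, 194 and 207 with siEA1-1, and 208 and 265 with siEA1-2. PPAT fell 2.89-fold and 2.48-fold (adjusted p = 5.89e-06 and 2.09e-05) and PAICS 1.94-fold and 1.65-fold (adjusted p = 7.87e-05 and 0.000695).

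GART, PFAS and ATIC, which also act in building the ring, were called lower with both siRNAs. GART was at 106 and 110.3 CPM in control, 68.3 and 75.8 with siEA1-1, and 63.9 and 81.6 with siEA1-2, falls of 1.51-fold and 1.49-fold (adjusted p = 0.00294 and 0.00415). PFAS went from 44.8 and 39.6 CPM to 25.0 and 32.1 and to 20.8 and 29.3, falls of 1.48-fold and 1.67-fold (adjusted p = 0.0312 and 0.0096), and ATIC went from 115 and 108 CPM to 81.2 and 92.2 and to 81.2 and 88.2, falls of 1.29-fold and 1.32-fold (adjusted p = 0.0183 and 0.0135). All 4 knockdown libraries of each lay below both controls. ADSL, which acts both before IMP and in AMP synthesis, was at 40.0 and 34.5 CPM in control and between 28.1 and 31.7 after knockdown, and was not called (adjusted p = 0.134 and 0.0562). The siEA1-1 call of PFAS was lost under DESeq2 (adjusted p = 0.0515) and, like the siEA1-1 call of ATIC, without siNeg1 replicate 1 (PFAS -0.48, 0.149, ATIC -0.32, 0.119) or siEA1-1 replicate 1 (PFAS -0.39, 0.242, ATIC -0.27, 0.180). Without siNeg1 replicate 1 the siEA1-2 calls of PFAS (-0.65, adjusted p = 0.0625) and ATIC (-0.35, 0.0982) were lost too.

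Of the 3 genes from IMP to GMP, GMPS and IMPDH2 fell with each siRNA. GMPS, which aminates XMP to GMP, was at 175 and 184 CPM in control, 109.6 and 117 with siEA1-1, and 119.98 and 136 with siEA1-2, falls of 1.58-fold and 1.40-fold (adjusted p = 0.000389 and 0.00354). IMPDH2, the more abundant of the enzymes that oxidise IMP, was at 90.6 and 95.3 CPM in control, 63.7 and 80.2 with siEA1-1, and 67.1 and 70.8 with siEA1-2, falls of 1.29-fold and 1.35-fold (adjusted p = 0.0311 and 0.0175). Of its exon bases, 32.8% belong also to an annotated gene on the same strand (ENSG00000290315) that has no row in the count table. IMPDH1 lay between 17.3 and 28.0 CPM in all libraries, with overlap between the groups, and was not called (adjusted p = 0.988 and 0.276). The IMPDH2 calls were lost without either control library, with adjusted p of 0.0804 and 0.116 for siEA1-1 and 0.0559 and 0.0762 for siEA1-2, and the siEA1-1 call also without siEA1-1 replicate 1 (log2 fold change -0.21, adjusted p = 0.303) and under DESeq2 (0.0629).

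The PRPP synthetases fell with both siRNAs. PRPS1 was at 123 and 109.5 CPM in control, 63.6 and 56.5 with siEA1-1, and 68.7 and 78.2 with siEA1-2, falls of 1.93-fold and 1.58-fold (adjusted p = 6.87e-05 and 0.00102). PRPS2 was at 67.7 and 71.2 CPM in control, 34.8 and 40.0 with siEA1-1, and 29.2 and 34.7 with siEA1-2, falls of 1.86-fold and 2.17-fold (adjusted p = 0.000256 and 7.23e-05). Of the salvage enzymes, which join free purine bases to PRPP, HPRT1 was at 42.5 and 40.2 CPM in control and fell 1.80-fold to 22.0 and 24.0 with siEA1-1 (adjusted p = 0.00312). With siEA1-2 its libraries stood at 24.2 and 35.4 CPM, both below control and far from each other (log2 fold change -0.46 ± 0.18, adjusted p = 0.0615). Without siEA1-2 replicate 2 its log2 fold change was -0.80 (adjusted p = 0.00312). APRT lay between 24.6 and 32.8 CPM in the 6 libraries and was not called (adjusted p = 0.836 and 0.227).

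NME1, a nucleoside diphosphate kinase that makes triphosphates from diphosphates, was at 125 and 135 CPM in control, 74.1 and 82.2 with siEA1-1, and 81.7 and 76.7 with siEA1-2, falls of 1.67-fold and 1.65-fold (adjusted p = 0.000196 and 0.00029). Its neighbour and near copy NME2 was at 156 and 175, 153 and 170, and 160 and 143 CPM and was not called (log2 fold change -0.04 and -0.13). NME1 shares 18.7% of its exon bases with the NME1-NME2 read-through gene, which was not called, and how the counting split reads among these genes is not given in the sources used here.

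Per kilobase of the canonical transcript (GENCODE v44), control levels ran from 0.127 ± 0.106 CPM per kb (SD, n = 2) for ALDH1L2 to 146 ± 8.15 for NME1. TYMS followed NME1 at 133 ± 0.757, and the difference between them was less than 2 SD of NME1. After a wide gap came a run of genes, PAICS at 61.2 ± 0.0848, MTHFD1 at 59.8 ± 4.54, RRM2 at 57.3 ± 6.25, ATIC at 56.6 ± 2.45, IMPDH2 at 56.3 ± 2.02, PRPS1 at 56.1 ± 4.56 and CTPS1 at 50.8 ± 4.06, of which neighbours overlapped within their SDs. At the low end, above ALDH1L2, were TK2 at 2.17 ± 0.00923, DHODH at 2.17 ± 0.0811 and SAMHD1 at 2.37 ± 0.209 CPM per kb.

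Levels of paired enzymes were compared as ratios. The ratio of RRM2 to RRM2B, in CPM per kb, was 3.10 and 4.10 in the control libraries, 1.01 and 1.12 with siEA1-1 and 1.11 and 1.71 with siEA1-2. That of TK1 to TK2 was 14.4 and 15.2 in control, 4.64 and 5.40 with siEA1-1 and 7.91 and 9.02 with siEA1-2. CTPS1 to CTPS2 went from 9.24 and 8.50 to 3.47 and 2.67 and to 2.81 and 4.53. In these pairs every knockdown library had a lower ratio than either control library. MTHFD2 and its paralog MTHFD2L, which fell by 0.66 and 0.58 on the log2 scale, stood at a ratio of 1.79 and 1.96 in control, 1.06 and 1.00 with siEA1-1 and 1.01 and 1.05 with siEA1-2. SHMT1 to SHMT2 was 0.227 and 0.195 in control and between 0.100 and 0.177 after knockdown. For PRPS1 to PRPS2 the siEA1-1 ratios of 2.18 and 1.68 straddled the control ratios of 2.17 and 1.83, while the siEA1-2 ratios of 2.81 and 2.69 lay above them. MTHFD1 to MTHFD1L was 1.44 and 1.41 in control, 1.6 and 1.48 with siEA1-1 and 2.93 and 1.85 with siEA1-2. IMPDH1 to IMPDH2 overlapped, with 0.164 and 0.174 in control and 0.154 to 0.221 after knockdown. No test was run on these ratios.

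**Figure D4:**
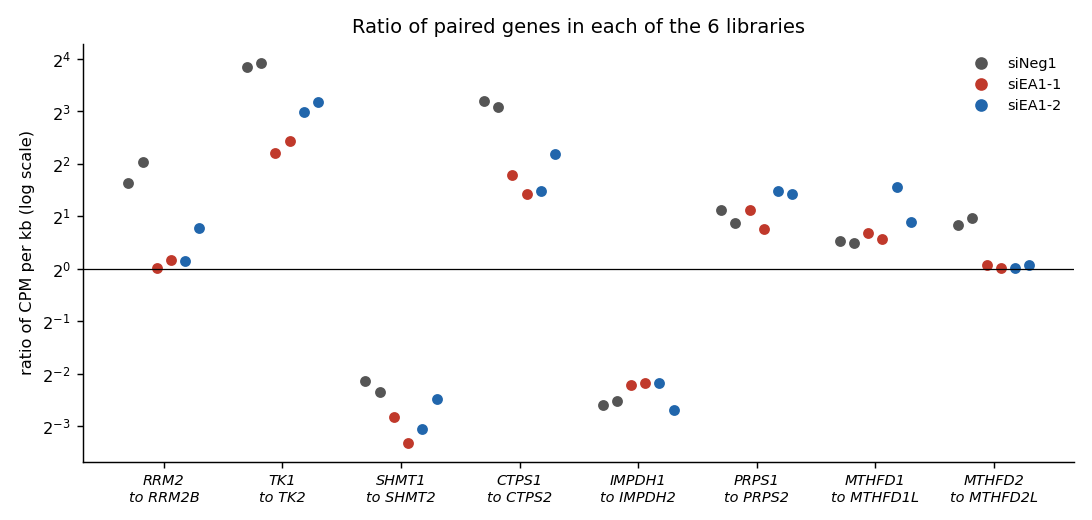
Ratio of CPM per kb (y axis, log scale) of 8 pairs of related enzymes (x axis) in each of the 6 libraries, siNeg1 in grey, siEA1-1 in red and siEA1-2 in blue. The RRM2 to RRM2B points go from 3.10 and 4.10 in control to between 1.01 and 1.71 after knockdown, and the IMPDH1 to IMPDH2 points overlap.

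The siRNAs were also compared with each other. Of the 36 genes, 3 were called different, each lower with siEA1-1 than with siEA1-2, where 1.44% and 0.796% of all genes tested were called lower and higher. The 3 were RRM2, with a log2 difference (siEA1-1 minus siEA1-2) of -0.84 ± 0.19 (adjusted p = 0.0496), RRM1 with -0.64 ± 0.12 (adjusted p = 0.0245) and TYMS with -0.58 ± 0.10 (adjusted p = 0.0141), and in each both siEA1-1 libraries lay below both siEA1-2 libraries. By DESeq2 all 3 were called as well. The median difference was -0.23 over the 11 dNTP genes, -0.09 over the folate genes and between -0.02 and 0.06 in the other 4 groups, and it was -0.01 over all genes tested. Over the 16 cell cycle and S phase genes it was -0.51, with all 16 differences negative and adjusted p-values of 0.0519 or more. ATF1 did not differ detectably between the siRNAs (-0.09 ± 0.14, adjusted p = 0.817). The part of cell cycle state in the 3 calls was not tested. Each of the 3 calls was lost when certain single libraries were left out, which leaves 1 library in a group. The RRM2 difference was -0.42 (adjusted p = 0.121) without siEA1-2 replicate 2, and -0.77 (0.251) and -0.90 (0.293) without siEA1-1 replicate 1 and replicate 2, and it was not called without siNeg1 replicate 1 (-0.84, 0.0693) or 2 (-0.83, 0.0673). RRM1 and TYMS were likewise not called without siEA1-1 replicate 1 and replicate 2. Their log2 differences were then -0.70 and -0.58 for RRM1 and -0.60 and -0.57 for TYMS, near those with all libraries. Without siEA1-2 replicate 2, MTHFD1L was called in the opposite direction, higher with siEA1-1, with a log2 difference of 0.91 (adjusted p = 0.00251) against 0.44 (adjusted p = 0.313) with all libraries.

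**Figure D5:**
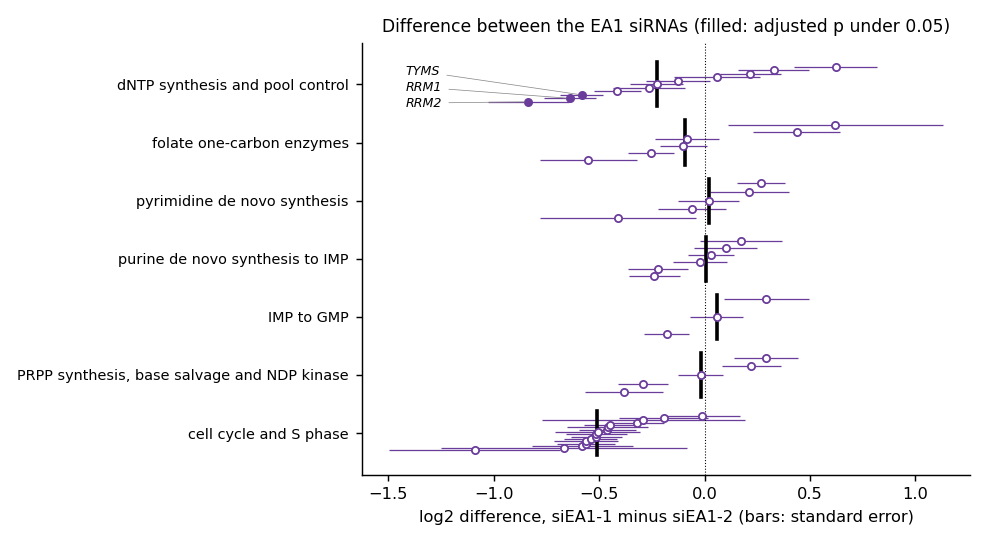
Log2 difference between siEA1-1 and siEA1-2 (x axis, bars for the standard error) for each gene of the 6 role groups and for 16 cell cycle genes (y axis), with filled points at an adjusted p under 0.05 and black lines for the group medians. RRM2, RRM1 and TYMS are the filled points, and the medians are -0.23 for the dNTP genes and -0.51 for the cell cycle genes.

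Further genes around these enzymes were read in the same fit. Of 83 further genes of folate, serine, purine and pyrimidine metabolism, 69 were in the table and 64 were tested. With siEA1-1, 17 fell, 7 rose and 40 were not called, with a median log2 fold change of -0.11, where 20.3% of all genes tested fell and 19.9% rose. With siEA1-2, 14 fell, 9 rose and 41 were not called, with a median of -0.07, where 18.2% fell and 18.5% rose. The count that rose with siEA1-1 was 3 under DESeq2, 2 without siNeg1 replicate 2 or siEA1-1 replicate 1, and 4 without siNeg1 replicate 1 or siEA1-1 replicate 2, and the count that rose with siEA1-2 was 5 without either control library. Among the 15 folate genes tested, the glycine decarboxylase GLDC was at 4.64 and 12.6 CPM in control, 0.142 and 0.329 with siEA1-1, and 0 and 1.12 with siEA1-2, and was called lower with both (adjusted p = 0.000886 and 0.00263). In serine synthesis PSAT1 rose with both siRNAs, from 34.0 and 31.4 CPM to 68.8 in both siEA1-1 libraries and to 77.1 and 58.1 with siEA1-2 (log2 fold change 1.08 and 1.04, adjusted p = 0.000126 and 0.000201).

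Of the 10 other pyrimidine genes tested, 3 fell with each siRNA, CMPK1, CMPK2 and UCK2, where 20.3% and 18.2% of all genes tested fell. None rose with siEA1-1 and 1 rose with siEA1-2, and the median log2 fold changes of the 10 were -0.007 and -0.05. CMPK2, a mitochondrial nucleoside monophosphate kinase, was at 198 and 216 CPM in control, 33.0 and 29.0 with siEA1-1, and 51.8 and 72.9 with siEA1-2 (log2 fold change -2.74 and -1.72, adjusted p = 3.38e-07 and 5.69e-06). UCK2, which phosphorylates uridine and cytidine, was at 159.9 and 142 CPM in control, 43.9 and 49.1 with siEA1-1, and 41.7 and 64.6 with siEA1-2 (-1.70 and -1.50). The related kinases UCK1 (0.11 and 0.15) and UCKL1 (0.24 and 0.32) were not called. CMPK1, the cytosolic UMP and CMP kinase, was chosen after its values were seen, because it and CMPK2 were the only ones of the 64 genes called different between the siRNAs. It was at 182 and 178 CPM in control, 145 and 142 with siEA1-1, and 75.5 and 85.6 with siEA1-2. Its siEA1-1 call (-0.33, adjusted p = 0.0217) was lost without siNeg1 replicate 1 (0.109) or 2 (0.0632) or siEA1-1 replicate 1 (0.0978) or 2 (0.102). Its log2 difference (siEA1-1 minus siEA1-2) was 0.83 (adjusted p = 0.00333), and that of CMPK2 was -1.01 (adjusted p = 0.0105), which was lost without siEA1-1 replicate 1 (-1.11, 0.0522) or replicate 2 (-0.92, 0.179).

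Of the 19 other purine genes tested, 4 fell with siEA1-1 and 2 with siEA1-2, where 20.3% and 18.2% of all genes tested fell. Not called were 15 and 16, and the median log2 fold changes of the 19 were -0.07 and -0.01. PNP, which splits nucleosides, fell with both siRNAs (log2 fold change -1.49 and -1.46). Of 6 nucleotidases, NT5E (-0.99 and -0.60) and NT5C3A (-0.84 and -0.60) fell, NT5C2 rose (0.42 and 0.45) and 3 were not called with each siRNA. Over all genes tested, 20.3% fell and 19.9% rose with siEA1-1, and 18.2% fell and 18.5% rose with siEA1-2. NME5 rose from 1.50 and 2.44 CPM to between 5.34 and 7.74 after knockdown. Others were called with 1 siRNA only. With siEA1-1 these included SLC29A3 (1.34) and SLC25A33 (-0.79), and with siEA1-2 PHGDH (0.58), AK1 (0.66), UPRT (0.54), SLC29A1 (0.44) and NME6 (-0.44).

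Calls of the smaller changes were lost when a library was left out, which leaves 1 library in its group. With siEA1-1 the calls of NT5C2 (adjusted p = 0.0622), SLC29A3 (0.193) and MTHFD2L (0.0575) were lost without siNeg1 replicate 2, and those of NT5C2 (0.0823), SLC25A33 (0.0732), SLC29A3 (0.0851) and MTHFD2L (0.0730) without siNeg1 replicate 1. Without siEA1-1 replicate 1, NT5C2 (0.0915), SLC25A33 (0.0809), SLC29A3 (0.83, 0.347) and MTHFD2L (0.156) were not called, and without siEA1-1 replicate 2, SLC25A33 (0.0735) was not. With siEA1-2, leaving out siNeg1 replicate 1 ended the calls of NT5C2 (0.0697), SLC29A1 (0.0903), PHGDH (0.33, 0.283), AK1 (0.0772), NME6 (0.104) and MTHFD2L (0.120). Leaving out siNeg1 replicate 2 ended those of NT5C2 (0.0561), NT5C3A (0.0833), UPRT (0.0644), AK1 (0.212), NME6 (0.120) and MTHFD2L (0.0917). Leaving out siEA1-2 replicate 1 ended those of NT5C2 (0.0709), SLC29A1 (0.0779), AK1 (0.0891), NME6 (0.138) and MTHFD2L (0.118), and leaving out siEA1-2 replicate 2 those of PHGDH (0.171) and AK1 (0.122). PHGDH, AK1 and NME6 also lost their calls with siEA1-2 without either siEA1-1 library. Under DESeq2, MTHFD2L was called with neither siRNA (adjusted p = 0.0674 and 0.132), and the calls of NT5C2 (0.0628), SLC29A3 (0.0901) and SLC25A33 (0.0667) with siEA1-1 and of NT5C3A (0.0524), PHGDH (0.110), AK1 (0.165) and NME6 (0.147) with siEA1-2 were lost.

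Genes of regulators that are known to act on this network were read in the same fit. MYC was at 192 and 212 CPM in control, 157 and 203 with siEA1-1, and 114 and 149 with siEA1-2, and was called lower with siEA1-2 only (log2 fold change -0.17, adjusted p = 0.384, and -0.62, adjusted p = 0.00693). ODC1, a gene that MYC is known to activate, went from 378 and 407 CPM to between 74.4 and 90.3 after knockdown (-2.34 and -2.24). ATF4 was at 102 and 107 CPM in control and between 78.4 and 90.4 after knockdown (-0.31, adjusted p = 0.0361, and -0.26, adjusted p = 0.0855). The siEA1-1 call of ATF4 was lost under DESeq2 (0.0825) and without siNeg1 replicate 1 (0.0912), siNeg1 replicate 2 (0.134) or siEA1-1 replicate 2 (-0.24, 0.228). Of 8 tested genes of the ATF4 response, 3 fell and 5 were not called with each siRNA, where 20.3% and 18.2% of all genes tested fell. With siEA1-2 these included ATF3 (-1.04, adjusted p = 0.00942), whose call was lost without siNeg1 replicate 1 (-0.71, 0.103). CTH, the cystathionine lyase that this list holds, went from 289 and 303 CPM to between 24.7 and 28.8 (-3.47 and -3.44, adjusted p = 6.99e-08 and 7.74e-08).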

How the data were processed

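The authors aligned reads to hg38 with BWA-MEM and counted them per gene with featureCounts 1.6.3, per the labels and the study's methods, from TruSeq Stranded mRNA libraries. The annotation, the strand setting and any filter applied before deposit are not given in the sources used here. The deposited values are raw counts for 18118 genes and 6 libraries, of which 18063 identifiers were found in GENCODE v44. The smallest maximum of any gene over the libraries was 6 counts.

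Genes were filtered with filterByExpr (minimum count 10, minimum total 15), scaled by TMM and fitted over 3 groups with edgeR 4.0.16 (R 4.3.3) by the quasi-likelihood test, and p-values were adjusted after Benjamini and Hochberg over 14571 genes. The standard error is the log2 fold change divided by the square root of F. The common biological coefficient of variation was 0.109. Scripts were tested on simulated data. The 36 genes, the further lists and the tests were chosen with earlier results of these data known. All 36 genes were reported, and from each further list up to 2 called genes per direction with the largest mean change, some of which are not reported here. Alternatives were DESeq2 1.42.0, RLE scaling, other filters, a replicate block and fewer libraries. By DESeq2 over the 3 groups, 2451 genes were lower and 2160 higher with siEA1-1. The study gives the same numbers for its activated and repressed genes. Libraries of a group correlated at r = 0.977 to 0.983 across genes, and none was a copy of another.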

Additional observations from a re-analysis of the deposited data

Results flagged for a closer look

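The effect of knockdown on 3 of the 36 genes differed between the siRNAs by the edgeR quasi-likelihood test of the difference itself, adjusted over all genes tested. The log2 difference (siEA1-1 minus siEA1-2) was -0.64 for RRM1, -0.84 for RRM2 and -0.58 for TYMS, and each gene was lower with siEA1-1 in 2 of 2 libraries. With 2 libraries per group, no group was large enough to look for a library far from the others.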

How the results depend on the processing

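With 2 libraries per group, leaving out a library leaves 1 in its group, and the counts of calls changed when this was done. Genes lower with siEA1-1 numbered 29, and 22 to 29 when each library was left out in turn. Genes higher with siEA1-1 numbered 3, and 1 to 3. Genes lower with siEA1-2 numbered 25, and 20 to 26, and 1 gene was higher under every alternative, SAMHD1 except without siNeg1 replicate 1, where it was ALDH1L2. Genes that differed between the siRNAs numbered 3, and 0 to 3 on leaving out libraries, and 1 (TYMS) when only the 4 libraries compared were fitted. Without siEA1-2 replicate 2 the 3 were RRM1, TYMS and, in the opposite direction, MTHFD1L (log2 difference 0.91, adjusted p = 0.00251). Of 32 calls with siEA1-1, 21 held in all 12 alternatives, and of 26 calls with siEA1-2, 19 did. None of the 3 calls of a difference held in all 12. No log2 fold change of a called gene changed sign. Among the 64 other pathway genes, an addition made after the data were seen, those higher with siEA1-1 numbered 7, but 3 by DESeq2 and 2 to 8 when a library was left out, and those higher with siEA1-2 numbered 9, and 5 to 10. A library left alone in its group is assumed to vary like the others.

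The labels number the replicates 1 and 2 in each group, but nothing says that a number marks a shared culture or day. Same-numbered libraries deviated together weakly (r = 0.130, 0.199 and 0.144 across genes), and with 2 numbers this does not establish pairing. With the replicate number as a block, 29 genes were lower with siEA1-1 and 27 with siEA1-2, adding ADSL (log2 fold change -0.39, adjusted p = 0.0368) and HPRT1 (-0.47, adjusted p = 0.0278), and 4 differed between the siRNAs, adding RRM2B (-0.42, adjusted p = 0.0457). At this depth ALDH1L2, with 3 counts in a control library, was dropped by a filter of 10 counts in every library.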

Other observations

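Within each group, replicate 2 was higher than replicate 1 in most of the 36 genes, 23 of 36 for siNeg1, 26 for siEA1-1 and 27 for siEA1-2, with median log2 ratios of 0.06, 0.13 and 0.16. The summed level of the 16 cell cycle genes was 2192 and 2156 CPM in siNeg1 replicates 1 and 2, 918 and 836 in siEA1-1, and 1072 and 1340 in siEA1-2.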
